A study of Mus musculus with 9 samples.

Results

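Potassium channel genes were taken as the protein-coding genes of the RefSeq mouse table (build mm10, GRCm38.p6) whose symbol begins with Kcn, which gave 94 of 21887 protein-coding genes on the autosomes and sex chromosomes. They comprised 40 voltage-gated subunits, 15 inward rectifiers, 14 two-pore channels, 8 calcium- or sodium-activated channels, 16 auxiliary subunits and Kcnrg, a regulator of voltage-gated channels. Each gene was followed over a window of its body plus 10 kb on each side, and its value in a library was the length in kb covered by that library's peaks. In 43 of the 94 windows another protein-coding gene was present, and the windows of Kcnj9 and Kcnj10 and of Kcnip1 and Kcnmb1 overlapped each other.

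The study mapped the active-chromatin mark H3K27ac, acetylation of histone H3 found at active promoters and enhancers, and the transcription factor SOX6 by ChIP-seq in mouse oligodendrocyte progenitor cells (OPC) and in oligodendrocytes (OL) made from them. The cells came from the epiblast stem cell lines EpiSC5 and 129O1, for which the labels name the strains 129SvEv and 129S1/SvImJ in that order. The labels name no genetic modification. Sonic hedgehog was left out of the OPC culture, and OPC were grown in bFGF and PDGFA and had been sorted for CD140a and NG2. The OL were sorted for the surface lipid O1. The labels call them intermediate or immature, and their medium was not given in the sources used here. Used here were 4 H3K27ac lists, 1 for each state and line, and 3 SOX6 lists, from OPC of both lines and from OL of EpiSC5. The 2 lines were the only replicates, so each state had n = 2 for H3K27ac and OL SOX6 had n = 1. The p-values rest on how far the change from OPC to OL differed between these lines, and on variance shared across genes. They do not measure variation among cultures of 1 line.

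Potassium channels let potassium leave or enter a cell and so set its resting voltage. OPC are known for outward currents through voltage-gated channels, whereas maturing oligodendrocytes lose most of these currents and gain inward rectifiers, which hold the membrane near the potassium equilibrium and take up potassium released by axons. Voltage-gated channels assemble from pore-forming subunits of 1 family, to which auxiliary subunits bind.

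The lists held 30829 (129O1) and 27721 (EpiSC5) H3K27ac peaks in OPC and 33738 and 31005 in OL. SOX6 peaks numbered 22876 and 15487 in OPC and 3893 in OL. The files give no read counts, so the depth behind each peak is unknown. Of 4 OPC markers, 2 (Pdgfra and Ptprz1) were narrower in OL. Gpr17 went the other way in both lines, with 11.4 and 5.73 kb in OPC and 14.3 and 11.6 kb in OL (0.48), and was not called (limma adjusted p = 0.11). OPC markers summed to 61.8 and 47.3 kb in OPC and to 35.2 and 27.2 kb in OL. Of 5 OL markers 4 (Mbp, Mag, Enpp6 and Myrf) were wider. OL markers summed to 15.9 and 12.01 kb in OPC and to 58.3 and 81.9 kb in OL, in the order 129O1 and EpiSC5 used throughout. Of the 8 neuronal markers 4 could be tested and of the 6 astrocyte markers all, and limma called none (1 and 2 at an unadjusted p under 0.05). The neuronal markers summed to 9.12 and 8.06 kb in OPC and 11.4 and 8.50 kb in OL, with Gad2, Stmn2 and Slc17a6 at 0 in each of the 4 lists. The astrocyte markers summed to 30.8 and 24.8 kb in OPC and 44.4 and 20.1 kb in OL, with none of them at 0. Whether other cells in the cultures contributed to the values below was not tested.

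H3K27ac lay in the window of 71 of the 94 Kcn genes (75.5%) in at least 1 list, against 72.1% of all protein-coding genes. It was present at 63 and 61 Kcn genes in OPC (67.0% and 64.9%, against 67.3% and 65.3% of all genes) and at 60 and 58 in OL (63.8% and 61.7%, against 65.7% and 61.7%). Kcn genes are long, with a median of 32.7 kb against 17.2 kb for all genes, and the mark covered little of them. In OPC 1.92% and 1.40% of their windows was covered, against 3.7% and 2.87% over the windows of all genes. In OL the shares were 1.62% and 1.53% for Kcn genes against 3.89% and 3.17%. The covered share was below that of all genes in each of the 4 lists.

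The 23 Kcn genes without H3K27ac in any list (against 27.9% of all genes) included whole subfamilies. These were Kcns with 3 genes and Kcnf with 1, both of which encode electrically silent subunits that modify other voltage-gated channels. A further silent subfamily, Kcng, had the mark at 1 of 4 genes (Kcng3). Kcnb2, the kidney and pancreatic islet channels Kcnj1 and Kcnj11, and 5 of the 14 two-pore genes (Kcnk7, Kcnk9, Kcnk15, Kcnk16 and Kcnk18) were likewise at 0 kb throughout. A further 20 genes carried a mean of less than 1 kb and were too short in mark to test.

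**Figure D1:**
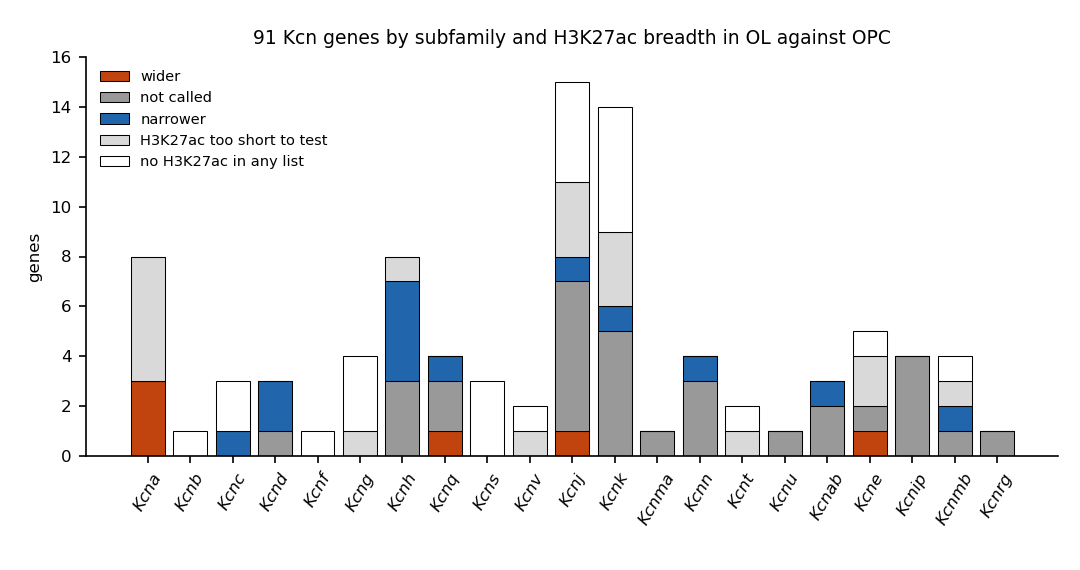
Number of genes (vertical axis) in each Kcn subfamily (horizontal axis) for 91 Kcn genes, divided by their H3K27ac result in OL against OPC. Of 8 Kcna genes 3 could be tested and were wider, of which Kcna1 and Kcna10 passed the filter through OL alone. Of the 7 tested Kcnh genes 4 were narrower, of which Kcnh2 passed the filter through OPC alone. Kcns and Kcnf carried no H3K27ac in any list.

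The covered lengths of OPC and OL were compared with limma on log2(scaled covered kb + 1), where scaling gave each list the same total covered length and the cell line was a term of the model. A gene was called wider or narrower in OL at a Benjamini-Hochberg adjusted p under 0.05 over 12459 genes, with the same sign in both lines. Of the 51 Kcn genes tested, 6 were wider and 13 narrower, and 32 were not called. Over all genes tested, 12.5% were wider and 16.4% narrower, against 11.8% and 25.5% of the tested Kcn genes, or 28.9% against 37.3% in either direction. The median difference was -0.15 on the log2 scale for Kcn genes and -0.24 for all genes. At least 1 on the log2 scale in both lines separated OL from OPC at 4 wider genes (7.84% of those tested, against 5.1% over all genes), namely Kcna1, Kcna2, Kcna10 and Kcnj6. The same size was reached at 7 narrower genes (13.7% against 3.76%), namely Kcnc1, Kcnd2, Kcnh5, Kcnh7, Kcnk10, Kcnn4 and Kcnq5. In 42 of the 51 genes the 2 lines moved the same way, and in 9 they moved in opposite directions. Of all 12459 genes tested, 10523 moved the same way in both lines and 1916 in opposite directions.

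These calls rest on few lists. The fits below that left out 1 list also had no line term and no same-sign rule, so list and model changed together. Without the OPC list of 129O1 or that of EpiSC5, limma called no gene at all, Kcn genes included (16 and 12 Kcn genes at an unadjusted p under 0.05). Without the OL list of EpiSC5, 3 Kcn genes were wider and 3 narrower, and without that of 129O1 the counts were 6 and 11. With only the peaks above each list's median score, none was wider and Kcnd2 alone was narrower (18 Kcn genes at an unadjusted p under 0.05). With no minimum on covered length, no gene was called (29 Kcn genes at an unadjusted p under 0.05). Without scaling, the median of all genes was -0.13 instead of -0.24, and 57.7% of all calls were wider instead of 43.4%. The Kcn counts were then 6 wider and 10 narrower: Kcnab2, Kcne1, Kcnj16 and Kcnk10 lost their calls, Kcnj14 was called wider, and the called Kcna, Kcnd and Kcnh genes were kept. With gene bodies alone, Kcnh2, Kcnh5 and Kcnq1 lost their calls and Kcnh6 and Kcnmb4 were too short to test, and with 50 kb on each side Kcnc1, Kcnh6, Kcnmb4 and Kcnq1 lost theirs. Of the 19 called genes, 6 (Kcna1, Kcna10, Kcne1, Kcnc1, Kcnh2 and Kcnn4) had a mean under 1 kb in the lower state, so they passed the minimum of 1 kb through the higher state alone. A shorter covered length in a bulk library may mean fewer cells with the mark or less mark per cell, which cannot be told apart here.

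**Figure D2:**
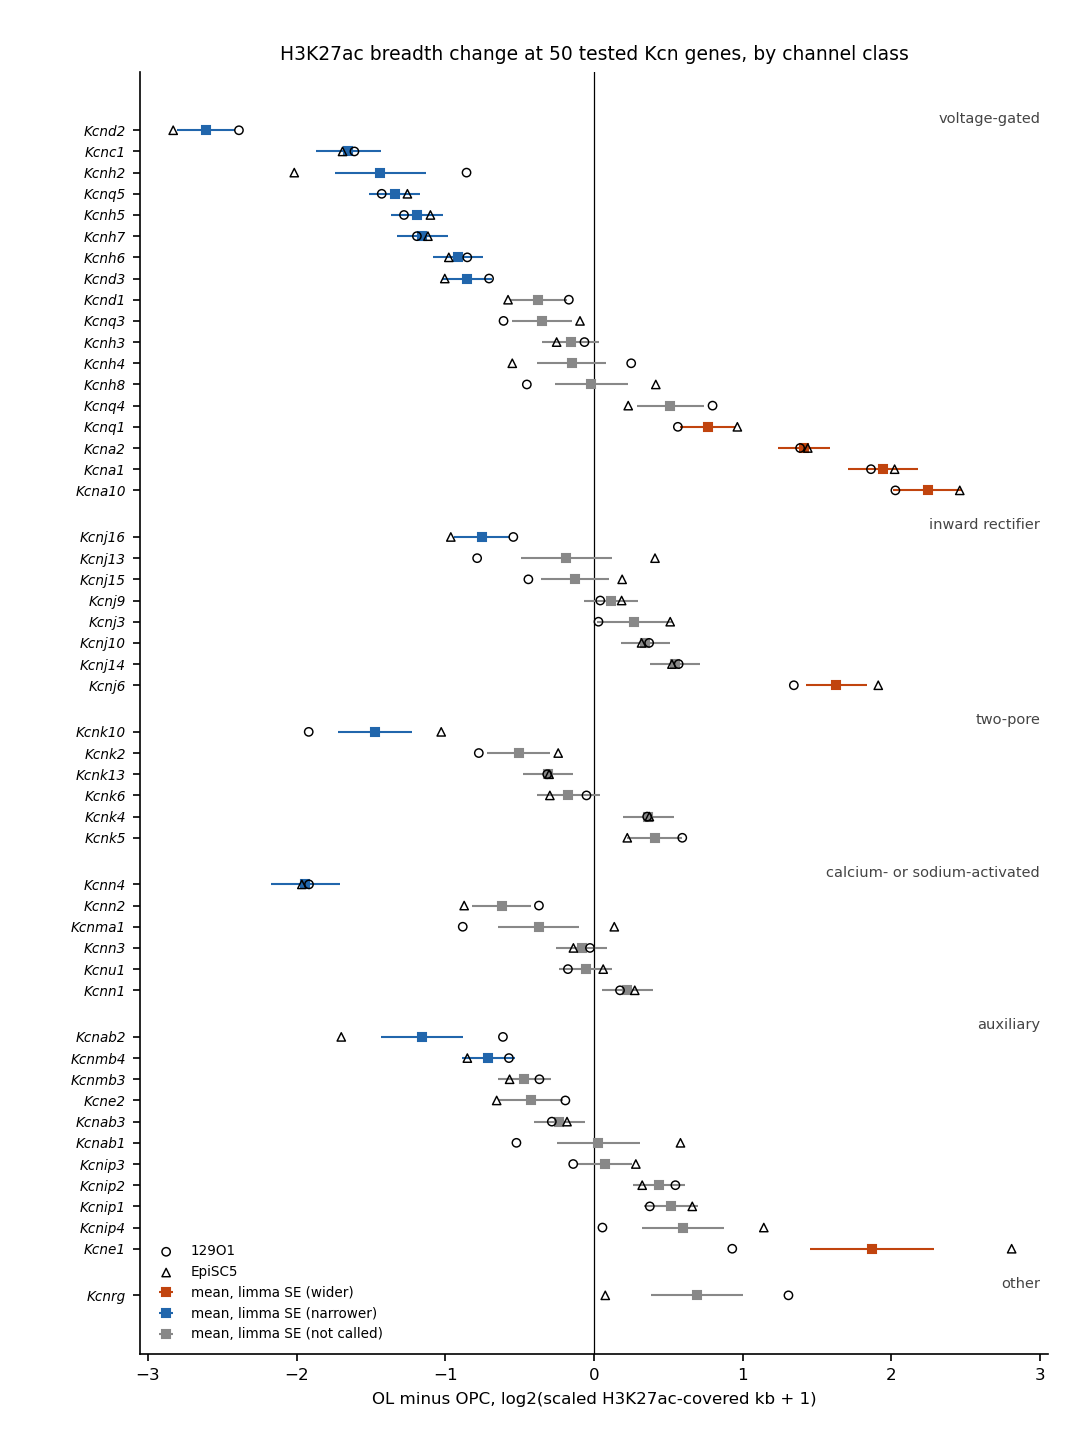
Difference in H3K27ac breadth between OL and OPC (horizontal axis, log2(scaled covered kb + 1)) for 50 of the 51 tested Kcn genes (vertical axis), grouped by channel class. Squares are the means over both lines with limma's standard error, circles and triangles the 2 lines, and the largest narrowing was at Kcnd2 (-2.61).

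Among the voltage-gated subunits, 29 of 40 carried H3K27ac and 19 were tested. Of these, 4 were wider and 8 narrower, with a median of -0.35 on the log2 scale. By subfamily, the 3 tested genes of Kcna, the Shaker-type family, were wider, Kcnd gave 2 narrower of 3, Kcnh 4 narrower of 7, Kcnc 1 narrower of 1, and Kcnq 1 wider and 1 narrower of 4. The count for Kcna depends on the filter, since Kcna1 and Kcna10 passed it through OL alone, while Kcna3 and Kcna6, with more mark in OPC, fell under it. The counts for Kcnc and Kcnh depend on it too, since Kcnc1 and Kcnh2 passed it through OPC alone. Differences between subfamilies were not tested.

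Kcna1 and Kcna2 encode the Shaker-type channels best known from the axon beside the node of Ranvier. At Kcna1 (chromosome 6, 126636463 to 126645801) no H3K27ac was present in either OPC list, and 2.98 and 2.95 kb was covered in OL. The covered stretch was a single peak at the upper end of the gene, with almost the same borders in both lines (126643342 to 126646317 in 129O1). At 1.94 ± 0.24 (limma SE) on the log2 scale the difference passed the test (limma adjusted p = 0.0049). Because OPC were at 0, that value depends on the pseudocount of 1 kb and is not a fold change.

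Kcna2 (chromosome 3, 107090883 to 107115005) had 3.33 and 2.41 kb in OPC and 10.9 and 9.26 kb in OL. Both OL lists lay far above both OPC lists, and the difference was 1.41 ± 0.17 on the log2 scale (limma adjusted p = 0.0050). OPC carried peaks in 3 places of the window, and OL widened these and added 3 stretches between 107094267 and 107106749 that neither OPC list held. The last of the shared places, from 107123878 to 107130949, lay mostly beyond the window.

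Kcna10, a less studied gene of the same family, had 0 kb in both OPC lists and 3.47 and 4.34 kb in OL. Its difference was 2.24 ± 0.23 on the log2 scale (limma adjusted p = 0.0035), the largest widening among the tested Kcn genes, with the same dependence on the pseudocount as at Kcna1.

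The other 5 Kcna genes carried too little mark to test, and their values are given without one. Kcna3, Kcna5 and Kcna6 are the delayed rectifiers and Kcna4 the A-type channel that have been described in OPC. Kcna3 had 1.26 and 1.09 kb in OPC and 0.319 and 0 kb in OL. Kcna6 had 1.997 and 1.32 kb in OPC and 0 and 0.251 kb in OL. At both genes the OPC lists lay above the OL lists, the opposite of Kcna1, Kcna2 and Kcna10.

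Kcna4 had 0 kb in OPC and 0.646 and 2.21 kb in OL. Kcna5 had 0 and 0.425 kb in OPC and 0 and 1.17 kb in OL, so its groups overlapped and the mark appeared in EpiSC5 alone. Kcna7, found mainly in muscle, stayed between 0.364 and 0.554 kb in the 4 lists.

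Kcna3, Kcna2 and Kcna10 lie in a row on chromosome 3, with gaps of 52.75 and 68.14 kb, and Kcna5, Kcna1 and Kcna6 lie in a row on chromosome 6. The start-site windows of the first 3, which run from 250 bases before to 50 bases after an annotated start, differed in which lists covered them. That of Kcna3 lay under H3K27ac in both OPC lists and no OL list, that of Kcna2 in all 4 lists, and that of Kcna10 in both OL lists and no OPC list. Kcna6 on chromosome 6 resembled Kcna3. The 250 bases before these starts are shown because neighbours of 1 family differed both in list and in sequence. They are written 5′ to 3′ on the gene's strand from the RefSeq tables (GRCm38.p6), with each C followed by a G, together with that G, in capitals. Positions are chr3:107035912-107036161 (Kcna3, plus strand), chr3:107101317-107101566 (Kcna2, plus), chr3:107182893-107183142 (Kcna10, plus) and chr6:126740675-126740924 (Kcna6, minus).
Kcna3: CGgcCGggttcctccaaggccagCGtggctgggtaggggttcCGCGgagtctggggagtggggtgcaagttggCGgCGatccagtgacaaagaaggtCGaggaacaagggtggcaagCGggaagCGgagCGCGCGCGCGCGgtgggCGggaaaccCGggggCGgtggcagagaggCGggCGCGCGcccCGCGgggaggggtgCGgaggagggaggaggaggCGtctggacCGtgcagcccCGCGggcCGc
Kcna2: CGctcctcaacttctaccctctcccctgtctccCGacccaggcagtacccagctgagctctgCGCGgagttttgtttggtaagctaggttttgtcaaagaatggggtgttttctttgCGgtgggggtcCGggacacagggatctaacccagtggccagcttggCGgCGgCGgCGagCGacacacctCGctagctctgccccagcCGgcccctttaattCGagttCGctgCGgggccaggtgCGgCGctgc
Kcna10: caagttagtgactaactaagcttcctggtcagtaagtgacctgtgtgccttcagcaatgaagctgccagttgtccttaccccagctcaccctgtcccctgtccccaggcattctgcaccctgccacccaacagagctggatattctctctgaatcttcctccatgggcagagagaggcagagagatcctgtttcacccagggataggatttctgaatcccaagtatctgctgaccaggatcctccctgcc
Kcna6: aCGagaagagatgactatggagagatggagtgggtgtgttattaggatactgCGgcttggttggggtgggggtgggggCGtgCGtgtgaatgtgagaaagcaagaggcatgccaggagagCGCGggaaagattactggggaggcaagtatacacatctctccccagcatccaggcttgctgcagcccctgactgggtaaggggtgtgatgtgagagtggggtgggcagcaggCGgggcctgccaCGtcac

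These bases held 31 CG pairs at Kcna3, 18 at Kcna2, 8 at Kcna6 and none at Kcna10, with 74.4%, 62.4%, 58.8% and 53.2% G or C. Over all 21263 start-site windows the median was 10 CG pairs. Only 0.5% of the windows under H3K27ac had no CG pair, against 13.4% of those without the mark. Kcna10 thus belonged to a small group of marked windows without one. The SOX-type motifs ACAAAG and AACAAT were searched on both strands. Of the 4 sequences, Kcna3 held ACAAAG once, 164 bases before the start, a motif present in 14.9% of all such 250-base stretches. AACAAT, present in 8.2%, was in none of the 4. A match of letters is a description and not a binding site, and none of the 4 windows lay under a SOX6 peak.

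Kcnd2 and Kcnd3 encode pore subunits of rapidly inactivating A-type channels. Kcnd2 (chromosome 6, 21215346 to 21729805) had 22.4 and 17.8 kb of H3K27ac in OPC and 3.56 and 2.09 kb in OL. Both OL lists lay far below both OPC lists, and at -2.61 ± 0.19 (limma SE) on the log2 scale this was the largest narrowing among the tested Kcn genes (limma adjusted p = 0.0025). The lines gave -2.39 and -2.83. It was also the Kcn call that held under the most alternatives, being lost only with no minimum on covered length and without either OPC list.

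The loss at Kcnd2 was spread over the gene. Of its regions, the stretch from 21276144 to 21280557 was covered in both OPC lists and neither OL list and was, at 4414 bp, the widest OPC-only region near any Kcn gene. Further OPC-only stretches lay from 21217851 to 21220451 and from 21324116 to 21326158. SOX6 of both OPC lists lay in the widest of these and in the one starting at 21324116, and in neither list at the one starting at 21217851. The region from 21568593 to 21573864 kept H3K27ac in all 4 lists.

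**Figure D3:**
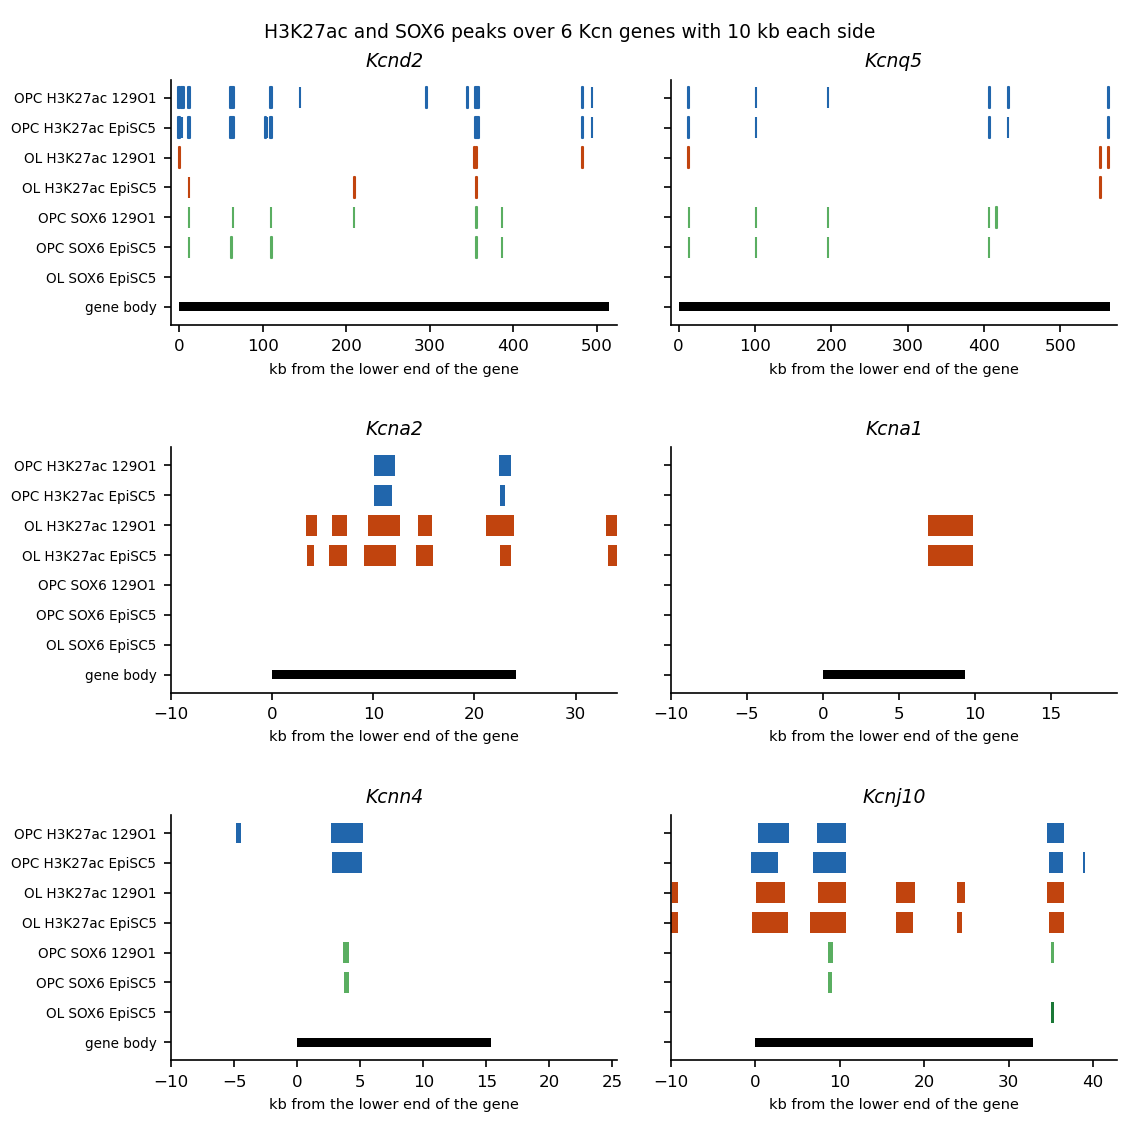
Peaks of the 7 lists (rows) along 6 Kcn genes with 10 kb on each side (horizontal axis, kb from the lower end of the gene); peaks of Kcnd2 and Kcnq5 are drawn with an added outline so that narrow ones are visible. OPC peaks of Kcnd2 and Kcnn4 had few or no OL counterparts, and Kcna1 had OL peaks alone. Kcnj10 kept most of its OPC peaks and gained others.

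Kcnd3 carried the most H3K27ac of any Kcn gene by the mean of the 4 lists, with 24.1 and 15.3 kb in OPC and 15.0 and 8.40 kb in OL. The lower OPC value lay just above the higher OL value, and within each line OL differed from OPC by -0.71 and -1.0 on the log2 scale. The mean difference was -0.85 ± 0.17 (limma adjusted p = 0.017), and the call was lost without the OL list of EpiSC5 and with either OPC list left out. Kcnd1, the third member, was not called (-0.37).

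Kcnc1, a fast delayed rectifier known from fast-spiking neurons, had 3.52 and 1.84 kb in OPC and 0.446 and 0 kb in OL. It was narrower by -1.65 ± 0.22 on the log2 scale (limma adjusted p = 0.0063). Kcnc2 and Kcnc4 had no mark.

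The Kcnh subfamily holds the ether-a-go-go channels. Kcnh5 had 3.15 and 3.88 kb in OPC and 0.694 and 1.60 kb in OL, Kcnh7 3.18 and 3.8 kb and then 0.823 and 1.53 kb, and Kcnh2 2.94 and 2.51 kb and then 1.19 and 0 kb. In all 3 both OL lists lay below both OPC lists. The differences on the log2 scale were -1.19, -1.15 and -1.44, with limma adjusted p of 0.0080, 0.0082 and 0.022. With gene bodies alone, Kcnh5 gave -0.60 and Kcnh2 -0.999 and neither was called (limma adjusted p = 0.064 for both). Kcnh6 was called as well (-0.91), but its widest peak in each list lay in the flank over Dcaf7, and the peak in Kcnh6 itself was 1829 and 627 bp in OPC, 594 bp in OL of 129O1 and absent in OL of EpiSC5. The call remained when bases in other genes were left out. Kcnh8 had 8.04 and 5.03 kb in OPC and 5.84 and 8.16 kb in OL, so the states overlapped and the mean difference was -0.02.

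Kcnq1, a slowly activating channel that pairs with Kcne1, had 8.01 and 5.66 kb in OPC and 12.9 and 13.8 kb in OL and was wider by 0.76 ± 0.19 on the log2 scale (limma adjusted p = 0.030). The difference fell to 0.45 with the gene body alone and to 0.37 with 50 kb on each side, and neither was called (limma adjusted p = 0.15 and 0.13). The widest OL-only region in the gene ran from 143251738 to 143255178 on chromosome 7. Kcnq5, a subunit of the M-current, went the other way, with 7.09 and 3.19 kb in OPC and 2.05 and 1.00 kb in OL and a difference of -1.34 ± 0.17 (limma adjusted p = 0.0056). Kcnq3, a further M-current gene, gave -0.35 and was not called.

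Inward rectifiers carried H3K27ac at 11 of 15 genes, of which 8 were tested, 1 was wider and 1 narrower, with a median of 0.19 on the log2 scale. Kcnj10 encodes the inward rectifier typical of glia. It had 9.23 and 9.16 kb in OPC and 12.8 and 13.6 kb in OL. Both OL lists were above both OPC lists, yet the difference of 0.35 ± 0.16 on the log2 scale did not pass the test (limma adjusted p = 0.15). All 4 lists had peaks in the regions around its start (172340700 to 172345250) and within the gene (172347680 to 172352004). The start-site window itself, 172340960 to 172341259, lay under H3K27ac in OPC and OL of EpiSC5 and in neither list of 129O1. OL alone covered 172357832 to 172360152 and 172365129 to 172366084. Another region in the flank lay over Pigm.

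Kcnj16, the partner of Kcnj10 in heteromeric channels, had 3.13 and 3.23 kb in OPC and 1.89 and 1.46 kb in OL and was narrower (-0.75 ± 0.19, limma adjusted p = 0.033). Its call was lost without scaling and in the fits that left out any 1 list. Kcnj6, a channel opened by G proteins, had 2.42 and 0.781 kb in OPC and 8.15 and 6.09 kb in OL, so both OL lists lay well above. It was wider by 1.63 ± 0.20 on the log2 scale (limma adjusted p = 0.0054), and the call was lost without either OL list. Its partners Kcnj3 and Kcnj9 were not called (0.27 and 0.11). Kcnj12 had 0 kb in OPC and 3.15 and 0.693 kb in OL and was too short to test.

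Of the two-pore leak channels, 9 of 14 carried the mark and 6 were tested, with 1 narrower and none wider. Kcnk10, a channel opened by stretch and lipids, had 7.42 and 3.66 kb in OPC and 1.22 and 1.61 kb in OL and was narrower (-1.47 ± 0.25, limma adjusted p = 0.011). Its relative Kcnk2 had 2.27 and 2.07 kb in OPC and 0.917 and 1.89 kb in OL and was not called (-0.51, limma adjusted p = 0.11). Kcnk1, a weak inward leak channel, had 0.642 and 0.861 kb in OPC and 0.492 and 0.329 kb in OL and was too short to test.

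Calcium- and sodium-activated channels carried H3K27ac at 7 of 8 genes. Of 6 tested, Kcnn4 alone was called. Kcnn4, the intermediate-conductance calcium-activated channel, had 2.998 and 2.40 kb in OPC and 0 kb in both OL lists. All of it in EpiSC5, and 2575 bp of it in 129O1, was 1 region inside the gene, from 24372503 to 24375077 on chromosome 7. The difference was -1.94 ± 0.23 on the log2 scale (limma adjusted p = 0.0048), a value that depends on the pseudocount since OL were at 0. Kcnn2 had 6.08 and 5.17 kb in OPC and 4.66 and 2.86 kb in OL, a difference of -0.62 that did not pass (limma adjusted p = 0.064). Kcnma1, the large-conductance channel, had 8.39 and 4.65 kb in OPC and 4.24 and 6.06 kb in OL and moved in opposite directions in the lines (-0.88 and 0.14).

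Auxiliary subunits carried H3K27ac at 14 of 16 genes, and of 11 tested 1 was wider and 2 narrower, with a median of 0.03 on the log2 scale. Kcne1, a small membrane protein that slows Kcnq1, had 1.71 and 0.259 kb in OPC and 4.43 and 7.91 kb in OL. It was wider by 1.87 ± 0.42 on the log2 scale (limma adjusted p = 0.024), with unequal differences of 0.93 and 2.81 in the lines, and the call was lost without the OL list of EpiSC5 and without scaling. Kcnab2, a cytoplasmic beta subunit of Shaker-type channels, had 4.15 and 3.49 kb in OPC and 2.45 and 0.586 kb in OL and was narrower (-1.16 ± 0.28, limma adjusted p = 0.029). Kcnmb4, a beta subunit of the large-conductance channel, was narrower as well (-0.71 ± 0.18, limma adjusted p = 0.033).

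Both called genes of the auxiliary class that narrowed lost their calls in several fits, Kcnab2 among them with a pseudocount of 0.25 kb. None of the 4 Kcnip genes, whose calcium-binding products escort A-type channels to the membrane, was called (limma, 2 of them at an unadjusted p under 0.05). Kcnip2 had 2.11 and 2.06 kb in OPC and 3.746 and 3.255 kb in OL (0.44, limma adjusted p = 0.11). With bases in other genes left out, Kcnip2 was called wider (0.839, limma adjusted p = 0.029). Kcnip3 had 13.9 and 8.95 kb in OPC and 13.1 and 12.9 kb in OL, with a mean difference of 0.07. At Kcnip1, which had 4.68 and 3.40 kb in OPC and 6.68 and 6.84 kb in OL (0.52, limma adjusted p = 0.080), lay the widest OL-only region near any Kcn gene, from 33743209 to 33747227 on chromosome 11. Kcnrg, outside these classes, had 0.569 and 1.62 kb in OPC and 3.14 and 2.04 kb in OL and was not called (0.69, limma adjusted p = 0.13).

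Between the cell lines, limma called none of the 51 Kcn genes in both states together (8 at an unadjusted p under 0.05), against 0.0883% of all genes tested. By sign after scaling, 22 were wider in 129O1 and 29 in EpiSC5. Before scaling the 129O1 lists covered more of the genome, 48.7 against 37.2 Mb in OPC and 50.9 against 43.5 Mb in OL. The lowest p was at Kcnn3, with 6.57 and 6.72 kb in 129O1 and 2.45 and 2.51 kb in EpiSC5, in the order OPC and OL, a difference of 0.89 ± 0.17 on the log2 scale (limma adjusted p = 0.30).

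When overlapping or adjoining H3K27ac peaks of the 4 lists were merged, 263 regions touched Kcn windows. Of these 25.1% (66) were covered in all 4 lists, against 34.0% of the regions in gene windows generally. Regions held by 1 list alone were the largest class, 28.9% (76) against 25.2%. Other combinations of lists outside the classes by state or line made up 13.7% (36) against 11.6%. OPC-only regions made up 13.3% (35) against 9.11%, and OL-only regions 15.6% (41) against 17.3%. SOX6 of both OPC lists lay in 12 of the 35 OPC-only regions (34.3%, against 24.0% in gene windows generally) and in 32 of the 66 regions shared by all lists (48.5% against 37.7%). It lay in 1 of the 41 OL-only regions (2.44% against 6.71%). These shares are descriptions, and regions of 1 gene are not independent.

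SOX6 was present in both OPC lists at 42 of the 94 Kcn genes (44.7%), against 31.2% of all genes. It was in the OPC list of 129O1 at 51 genes (54.3% against 44.5%) and in that of EpiSC5 at the same 42 (against 32.6%). The covered share of their windows, however, was below that of all genes, 0.328% and 0.226% against 0.476% and 0.292%. In OL of EpiSC5 it was present at 9 Kcn genes (9.57% against 16.3%) and covered 0.0188% of the windows against 0.0996%. At 34 Kcn genes (36.2% against 21.8%) a SOX6 peak in OPC of EpiSC5 had no counterpart in the window in OL, at 8 there was one in both, and at 1, Kcnj14, in OL alone. The OL list is shorter, with 3893 peaks against 15487, and rests on 1 library, so no test was made. With only the 3893 highest-scoring peaks of each list, SOX6 was in both OPC lists at 13 Kcn genes and in OL at 9. The share of all genes at that list length is not given, so whether Kcn genes differ from it cannot be told.

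The genes with the most SOX6 by the smaller of the 2 OPC lists were Kcnd3, Kcnh7, Kcnq3, Kcnq1, Kcnn2, Kcnd2, Kcnq5, Kcnma1, Kcnh8 and Kcnip1, which are 222 to 713 kb long. Kcnd3 had 3.23 and 2.61 kb, Kcnq1 1.75 and 1.78 kb, and Kcnh7 1.75 and 1.75 kb. Kcnd2 had 1.77 and 1.45 kb and Kcnq5 1.69 and 1.26 kb. In the lists of the 2 lines these values were close, whereas Kcnh8 (3.50 and 0.904 kb) and Kcnma1 (2.44 and 0.935 kb) differed between them. Of the 10, Kcnq1 alone had SOX6 in OL, at 0.190 kb.

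**Figure D4:**
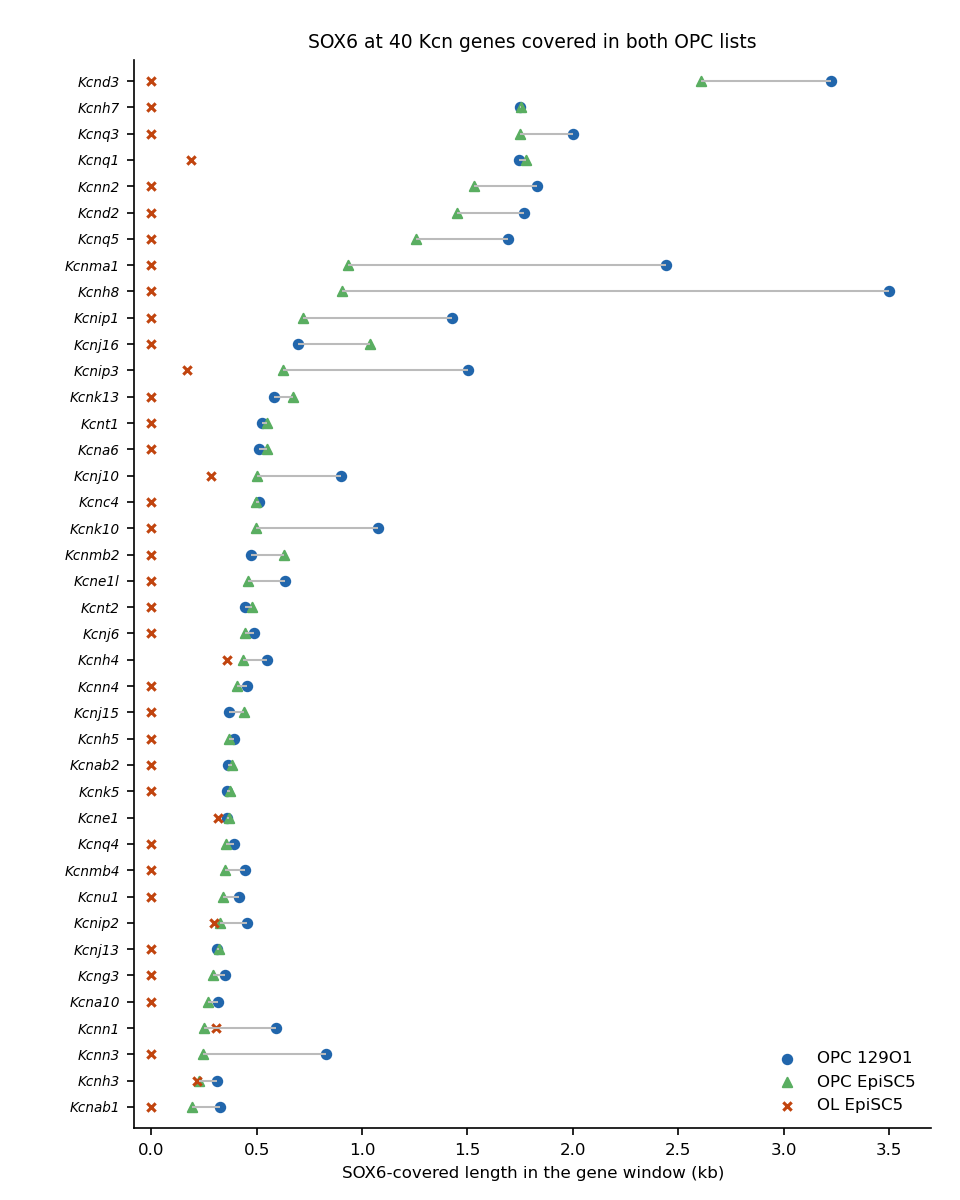
SOX6-covered length in kb (horizontal axis) in the windows of 40 of the 42 Kcn genes with SOX6 in both OPC lists (vertical axis), for OPC of both lines and OL of EpiSC5, 1 library each. Kcnd3 had the most by the smaller OPC value (2.61 kb), and most genes were at 0 in OL.

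Near Kcn genes lay 121 SOX6 peaks in OPC of 129O1 and 83 in OPC of EpiSC5, of which 92 and 64 were inside the gene body. Of the EpiSC5 peaks 95.2% overlapped a 129O1 peak, and of the 129O1 peaks 65.3% an EpiSC5 peak. H3K27ac of the same state and line overlapped 70.2% and 66.3% of them. The strongest by the authors' score lay inside Kcnh7, from 62807354 to 62808024 on chromosome 2, with a score of 2944 and a fold enrichment of 27.5 in 129O1 and a score of 2546 in EpiSC5. Next came Kcnk10 (scores 1937 and 1604) and Kcnq5, the latter with a peak from 21804917 to 21805482 on chromosome 1 (scores 1899 and 1971) inside an OPC-only H3K27ac region. At Kcnn4 the SOX6 peak (24373501 to 24373956) likewise lay inside the region that OL lacked.

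The 9 OL SOX6 peaks near Kcn genes all overlapped OL H3K27ac, but 6 of them lay in the body of another gene, namely Mcrs1 (near Kcnh3), Rab5c (Kcnh4), Oga (Kcnip2), Pigm (Kcnj10), Grwd1 (Kcnj14) and Arrdc2 (Kcnn1). Inside Kcn genes lay a peak of Kcne1 and one of Kcnq1, at 0.315 and 0.190 kb. The peak near Kcnip3 lay in the flank. With gene bodies alone the count of 9 became 2.

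Among the tested Kcn genes, SOX6 in both OPC lists was present at 10 of the 13 narrower ones (76.9%), at 4 of the 6 wider ones (66.7%) and at 20 of the 32 not called (62.5%). Over all genes tested the shares were 58.1%, 58.4% and 46.1%. Both directions of change held similar shares over all genes. Kcna1 and Kcna2 were the 2 wider Kcn genes without SOX6 in both OPC lists, while Kcna10 had 0.317 and 0.269 kb in its flank.

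Annotated start-site windows were given for 69 of the 94 Kcn genes and 17492 genes in all. A start counts as covered where a peak overlapped its window by at least 1 base, whether or not the peak reached the start itself. H3K27ac lay on a start of 20 Kcn genes (29.0%) in any list, against 53.5% of all genes. All 4 lists covered a start at 5 (7.25% against 35.8%), namely Kcna2, Kcnab2, Kcnh8, Kcnip3 and Kcnj2. Starts covered in both OPC lists and no OL list were found at 8 genes (11.6% against 3.78%), namely Kcna3, Kcna6, Kcnc1, Kcnd3, Kcnh5, Kcnk10, Kcnk2 and Kcnma1. Those covered in both OL lists and no OPC list were at 2 (2.9% against 0.434%), Kcna10 and Kcnj4. Kcnc1, Kcnd3, Kcnh5 and Kcnk10 were thus narrower over the gene window and had the mark on a start in OPC alone, although at Kcnc1 and Kcnd3 an OL peak lay beside it.

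**Figure D5:**
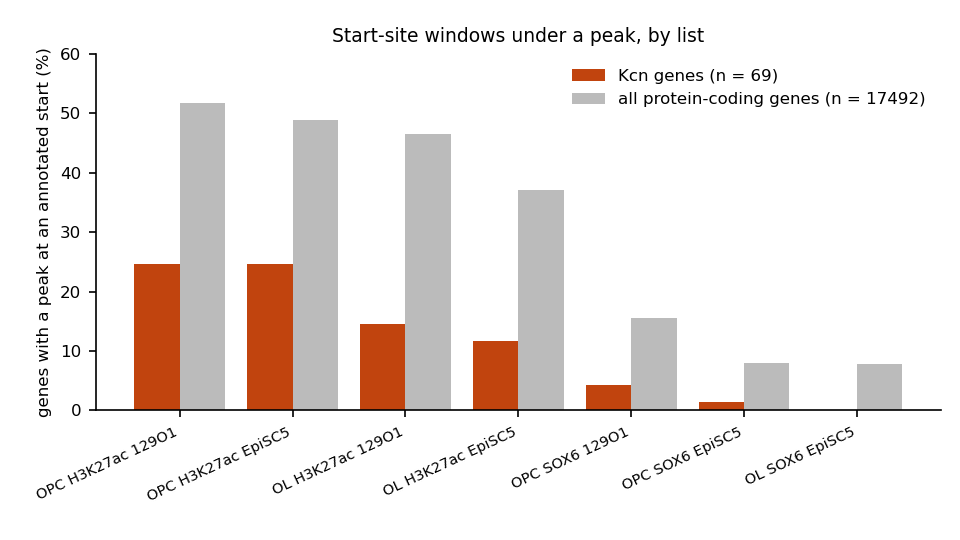
Share of genes with a peak on an annotated start-site window (vertical axis, %) in each of the 7 lists (horizontal axis), for 69 Kcn genes and 17492 genes in all. The Kcn share was the lower of the pair in each list.

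SOX6 overlapped a start-site window of Kcnab2 in both OPC lists, the 1 such Kcn gene of 69 (1.45% against 7.47% of all genes). Its peak, from 152453032 to 152453397 in 129O1, overlaps the window of an internal start of the gene on the upstream side and does not reach the start itself. The window had H3K27ac in both OPC lists and in OL of 129O1 but not in OL of EpiSC5. The 250 bases before that start are at chr4:152452946-152453195 (minus strand, GRCm38.p6, RefSeq), shown with CG pairs in capitals as above because the SOX6 peak overlaps them.
Kcnab2: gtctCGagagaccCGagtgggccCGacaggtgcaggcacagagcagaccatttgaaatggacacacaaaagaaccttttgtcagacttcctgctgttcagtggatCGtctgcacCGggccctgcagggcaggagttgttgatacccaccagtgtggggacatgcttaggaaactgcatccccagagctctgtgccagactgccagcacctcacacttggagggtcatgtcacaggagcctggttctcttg

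They held 5 CG pairs and 56.4% G or C, and neither ACAAAG nor AACAAT on either strand.

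Other genes of potassium handling were taken from a list of 33 symbols outside Kcn, covering the sodium pump, potassium-chloride transporters, HCN channels, partners that place Kcna channels on axons and the connexins that couple glia. H3K27ac was present at 27 of the 33, against 72.1% of all protein-coding genes, and 23 were tested. Of these 23, 5 were wider and 3 narrower, against 12.5% and 16.4% of all genes tested, and 15 were not called. The median was -0.11 on the log2 scale against -0.24 for all genes. The wider genes were Hcn2 (2.55), Slc12a2 (1.47), Cntn2 (1.28), Dlg1 (1.26) and Gjb1 (0.88). Hcn2 encodes a pacemaker channel, Slc12a2 a cotransporter that brings potassium into the cell, and Gjb1 the connexin of myelinating cells. Hcn2 had 0 kb in OPC and 6.58 and 3.86 kb in OL, so its value depends on the pseudocount. Cntn2 had 1.16 and 0 kb in OPC and 2.58 and 2.64 kb in OL. Gjb1 had 0 and 1.58 kb in OPC and 1.05 and 3.95 kb in OL. Hcn2, Cntn2 and Gjb1 thus had a mean under 1 kb in OPC and passed the minimum of 1 kb through OL alone. The narrower genes were Dlg4 (-1.98), Cntnap1 (-0.87) and Dpp6 (-0.83). Dpp6, a subunit of A-type channels, had 16.9 and 9.35 kb in OPC and 7.68 and 7.0 kb in OL. Dlg4 had 7.47 and 6.61 kb in OPC and 4.06 and 0 kb in OL, with unequal differences of -0.78 and -3.17 in the lines. Because OL of EpiSC5 was at 0, the value for Dlg4 also depends on the pseudocount.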

How the data were processed

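ChIP-seq peak lists for 7 of the 9 samples were used (4 H3K27ac, 3 SOX6). The 2 input samples were not used. The submitters' processing notes list bedtools, deepTools, Picard, Bowtie2 2.3.2 and Trim Galore 0.3.1, on mm10, with the peak caller, its control and its thresholds not given in the sources used here. A deposited list holds 1 library and gives, per peak, a score, a fold enrichment ratio, −log10 p and −log10 q, as the authors deposited them, in the column order of a broad or narrow peak file. Where the deposited SOX6 files hold a further column, the position of the peak's summit, it was not used. Scores, folds and q-values were used to describe and rank peaks within a list only. The libraries were sequenced as 50 or 75 bp reads on 2 kinds of instrument per the labels, and which library went to which was not given, so instrument and group cannot be told apart. The lists hold no counts, so depth and its precision are unknown.

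Of 165767 peaks, 218 on other contigs were left out. Covered length per gene window was scaled to an equal total per list, taken as log2(scaled kb + 1), and fitted with limma 3.58.1 (R 4.3.3, trend) with state and cell line for genes averaging 1 kb or more, leaving 1 residual degree of freedom and a prior of 5.04. Adjusted p-values are Benjamini-Hochberg over all genes tested. An exact permutation test of 2 against 2 lists that ignores the pairing by line cannot go below p = 0.33. The line pairs OPC and OL by origin, and over 12459 genes the line differences of the 2 states correlated with r = 0.273, so the line was kept as a block. Tested on simulated data of 12459 genes for this comparison, the fit called 23 of 12259 unchanged genes and 48%, 92%, 98% and 100% of those changed by 1, 1.5, 2 and 3 on the log2 scale. The simulated noise was normal, with variances drawn from the fit's own prior. It held no line differences and no lengths fixed at 0, and the same-sign rule was not applied. These rates describe that setting and may not hold for the real lists. SOX6 presence was an overlap of at least 1 base, with no test.

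The genes named are those called for state or line, 16 channel genes of known interest in these cells, the 10 with the most SOX6 in OPC, those with SOX6 in OL and the 5 with the most H3K27ac, with other genes as examples. Of the genes analysed, 4 are not reported here by name. They stay in the counts over all Kcn genes and not in the marker list or the plots by gene. The members and lists were chosen with earlier results of these data known. Alternatives were another pseudocount, other minimum lengths, no scaling, other windows, bases outside other genes, equal or halved lists, no line term and each list left out. Python 3.11.15 was used for overlaps.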

Additional observations from a re-analysis of the deposited data

Results flagged for a closer look

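At 9 of the 51 tested Kcn genes the difference in H3K27ac breadth between OL and OPC had opposite signs in 129O1 and EpiSC5, and none of the 9 was called. Opposite signs occurred at 1916 of the 12459 genes tested in all. Values are given for 8 of the 9 Kcn genes. The change in 129O1 minus the change in EpiSC5, on the log2(scaled kb + 1) scale, was -1.196 at Kcnj13, -1.103 at Kcnab1, -1.019 at Kcnma1, -0.867 at Kcnh8, -0.631 at Kcnj15, -0.421 at Kcnip3 and -0.237 at Kcnu1. At Kcnh4 it was 0.8, the only positive value of these 8 genes, with OL wider than OPC in 129O1 and narrower in EpiSC5. At the other 7 OL was narrower in 129O1 and wider in EpiSC5. With 1 list per state and line, the difference between the lines was not tested at any of them. At Kcnu1 both lines were close to 0. With bases in other genes left out, 39 Kcn genes carried enough mark to test, and Kcnj13, Kcnh4 and Kcnu1 were not among them.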

How the results depend on the processing

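The 6 wider and 13 narrower Kcn genes became 0 and 0 with no minimum length, 14 and 22 with 50 kb on each side, and 0 and 1 with the peaks above each list's median score. When only genes averaging 3 kb or more were tested, 8 of the 19 called genes could be tested and 8 kept their calls, and with Kcnip1 and Kcnn2 newly called 5 Kcn genes were wider and 5 narrower. Leaving out 1 list gave 0 to 6 wider and 0 to 11 narrower, and without either OPC list limma called 0 of 12459 genes (2769 and 2451 at an unadjusted p under 0.05). The lone list of a state was then assumed to vary like the other state, and the fits with 1 list left out had no line term and no same-sign rule. Of the 19 called genes, 19 were kept when bases in other genes were left out, 17 with a pseudocount of 0.25 kb, 16 with equal numbers of peaks, 15 without scaling and 16 with no replicate block, where Kcnab2, Kcnd3 and Kcnh5 were lost. Without scaling, 57.7% of all calls were wider instead of 43.4%, and 37.5% of Kcn calls instead of 31.6%. The line comparison stayed at 0 Kcn genes in the 9 alternatives run.

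SOX6 in both OPC lists, 42 Kcn genes, became 16 with at least 500 bp covered, 66 with 50 kb, 25 with the peaks above the median score and 13 with equal lists, and 42 to 51 with 1 list left out. SOX6 in OL, 9 Kcn genes, became 0 with at least 500 bp, 2 with gene bodies alone and 26 with 50 kb.

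For named genes, 289 of 419 values kept direction and side of the threshold, 109 lost the call, 8 gained one and 13 changed sign, all 13 at genes that were not called. With 50 kb, Kcnh4 gave 0.057, Kcnip3 -0.117 and Kcnj10 -0.032. With 1 list left out, the values ran from -0.606 to 0.306 at Kcnh4, -0.326 to 0.290 at Kcnh8 and -0.043 to 0.184 at Kcnip3. Kcnh8 gave 0.1 without scaling and 0.201 with bodies alone. With the peaks above the median score, Kcnip3 gave -0.094 and Kcnq3 0.225. With bases in other genes left out, Kcnn1 gave -0.018. The cause of these changes was not tested. Without counts, a peak near the caller's threshold appears or vanishes whole.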

Other observations

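At Kcnc4 and Kcnt2 SOX6 was present in both OPC lists with no H3K27ac in the window in any of the 4 lists, 2.13% of Kcn genes against 0.411% of all genes. Kcnc4 encodes a rapidly inactivating relative of Kcnc1, and Kcnt2 a sodium-activated channel. The Kcnt2 peak lay inside the gene, from 140253990 to 140254436 on chromosome 1 in 129O1, with scores of 643 and 845 by the authors' caller. The Kcnc4 peak lay in the flank, from 107431233 to 107431742 on chromosome 3, with scores of 594 and 1015. These scores fell between the percentiles 84.9 and 93.5 of their lists.

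At the edge of the Kcna2 window and mostly beyond it, the region from 107123878 to 107130949 on chromosome 3 carried H3K27ac in all 4 lists and SOX6 in all 3 SOX6 lists, OL included. The Kcna2 window itself held no SOX6 peak in any list. In OL the H3K27ac peak there was 7072 bp wide in 129O1 and 6040 bp in EpiSC5, against 1371 and 1307 bp in OPC for the peak that starts at 107124984 and 107124959.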
